A study of Homo sapiens with 6 samples.

Results

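The nuclear-encoded subunits of the respiratory chain were examined in MG63 cells, an established human osteosarcoma line, after knockdown of FUBP1. Members were the protein-coding genes outside the mitochondrial chromosome whose symbols match the names used for subunits. For complex I these were NDUFA, NDUFB, NDUFC, NDUFS or NDUFV followed by a number, and for complex II SDHA to SDHD. For complex III they were UQCR, with CYC1 added, for complex IV COX4 to COX8, and for complex V ATP5. This rule found 89 members among the 58735 genes measured: 36 of complex I, 4 of complex II, 10 of complex III, 18 of complex IV and 21 of complex V. NDUFA4 was placed in complex IV, where its protein is now known to sit. The acyl carrier protein gene NDUFAB1 and the paralog NDUFA4L2 lay outside the rule. By its names the rule also took in genes that are not plain subunits, and the counts by complex include them. They are the inhibitor ATP5IF1, the retrocopy UQCRHL, the supercomplex factor COX7A2L, and ATP5S, ATP5MF-PTCD1 and ATP5MGL, which share only the name.

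The study asked which genes act downstream of FUBP1, a DNA- and RNA-binding protein. Cells were transfected with siRNA against FUBP1 (siFUBP1, 3 samples) or with a negative-control siRNA (siMock, 3 samples), and RNA was collected 48 h later. All samples come from 1 cell line, the labels name no drug treatment, and the sequence of the siRNA used for sequencing is not named in the sources used here. Read counts per gene totalled 16309900 to 17484313 per sample. The labels do not say that the 3 samples of a group were separate cultures, so the p-values measure the spread between these samples, which may be technical.

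The respiratory chain passes electrons from NADH (complex I) and succinate (complex II) to ubiquinone, on to cytochrome c (complex III) and finally to oxygen (complex IV). Complexes I, III and IV pump protons across the inner mitochondrial membrane, and complex V, the ATP synthase, uses the proton gradient to make ATP. Complex II is built from nuclear genes alone. The other complexes also contain subunits encoded by mitochondrial DNA, so their assembly draws on both genomes.

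Most members changed little, and more of them fell than rose. Of the 89 members, 83 had enough reads to be tested, and 12 were higher and 33 were lower in siFUBP1 at an adjusted p below 0.05 (edgeR quasi-likelihood test, Benjamini-Hochberg adjustment over 16116 genes). Those counts are 14.5% and 39.8% of the tested members. Over all tested genes, 30.1% were higher and 30.1% were lower by the same rule, so the knockdown moved a large part of the transcriptome. When library sizes were taken as total counts with no scaling factor, the members divided into 18 higher and 27 lower. The median log2 fold change was -0.113 over the members and 0.00197 over all tested genes. These were -0.0161 and 0.0986 with total counts as library sizes, and -0.19 and 0.0226 after correction for GC content and length.

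Large changes were few and went downward. At an absolute log2 fold change above 1, 4 members were lower (COX8A, SDHC, NDUFB11 and SDHD) and 0 were higher, against 9.13% lower and 8.16% higher over all tested genes. The groups did not overlap in CPM (counts scaled to a common library size after TMM adjustment) for 45 of the 83 tested members, or 54.2%, against 63.9% of all tested genes.

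**Figure D1:**
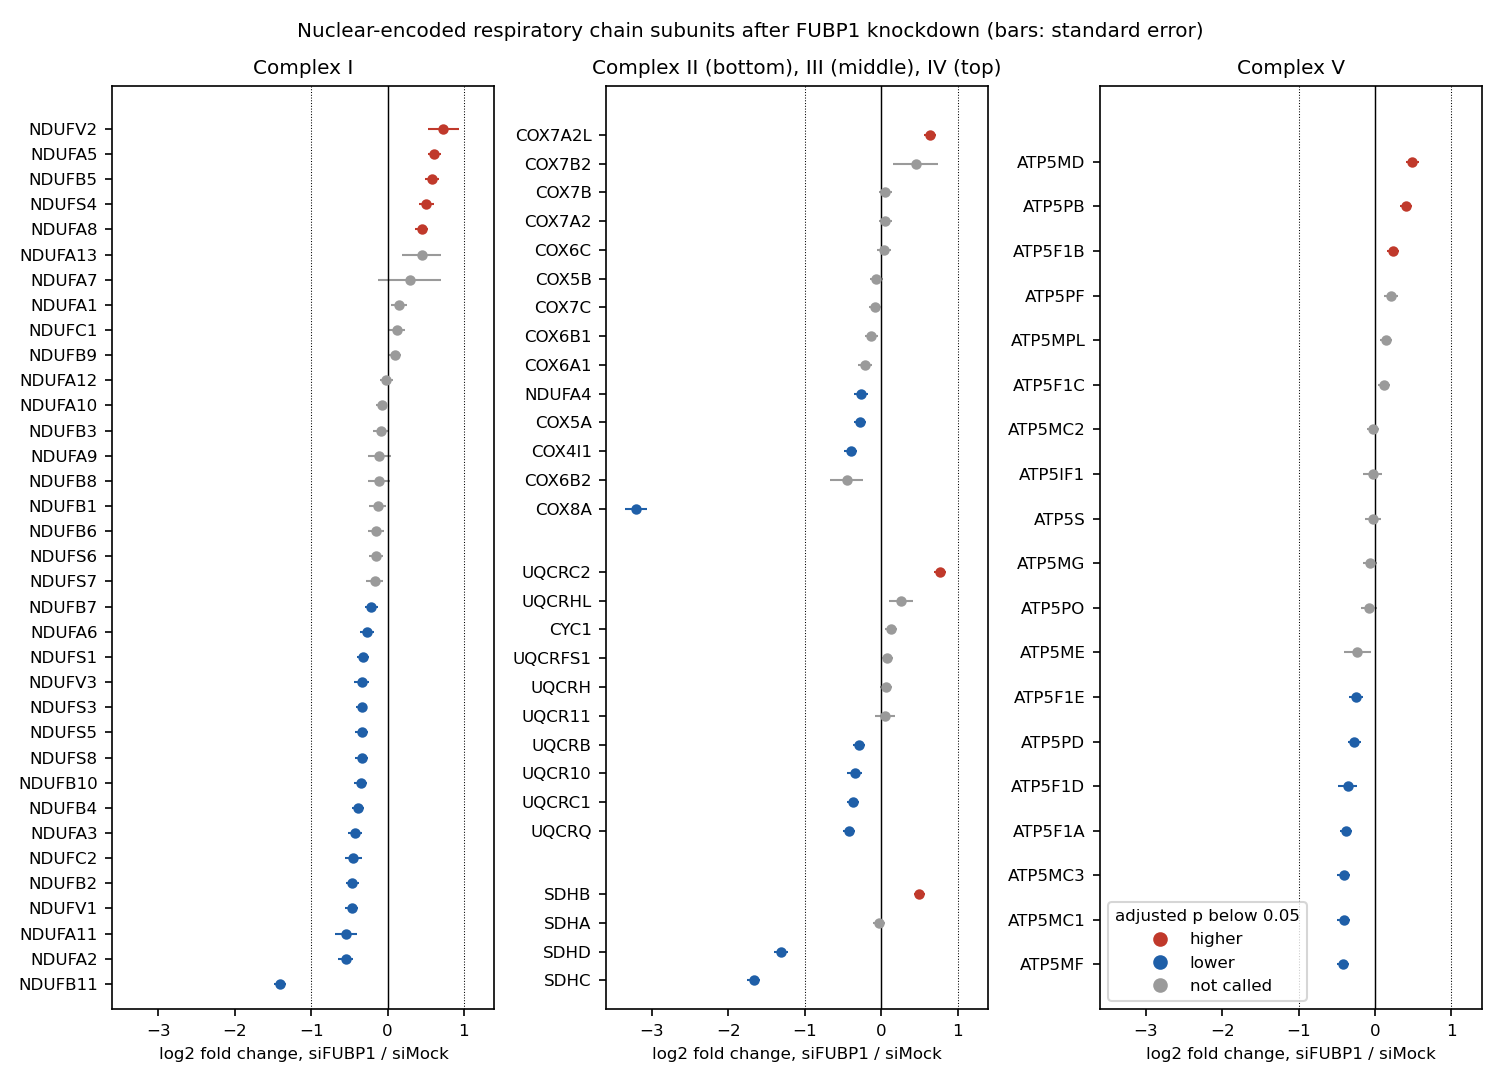
Log2 fold change of siFUBP1 against siMock (horizontal axis) for 82 of the 83 tested members, by complex, with bars for the standard error and colours for the call at an adjusted p below 0.05. COX8A at -3.21, SDHC at -1.67, NDUFB11 at -1.41 and SDHD at -1.31 stand left of the dotted line at -1, and UQCRC2 at 0.77 is the highest point.

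FUBP1 itself (ENSG00000162613) had 3872, 4331 and 4282 reads in the siMock samples and 749, 752 and 926 in the siFUBP1 samples. The groups were far apart, and the siFUBP1 mean was 18.4% of the siMock mean (log2 fold change -2.44 ± 0.0895 (SE), adjusted p = 1.9e-17). The markers of the bone lineage were present only in part: COL1A1 and VIM averaged 113 and 149 CPM in siMock, whereas COL1A2 and IBSP had 0 reads in all 6 samples, which allows up to 0.184 CPM in the shallowest sample, and SPARC had at most 5. ALPL had 0 to 1 reads, SP7 0 to 2 and BGLAP 2 to 13, so 6 of the 9 bone and mesenchymal markers were too low to test, in samples that the labels call MG63. Leukocyte markers were at or near 0, with a summed 0.104 ± 0.0763 CPM (SD, n = 3) in siMock and 0.0582 ± 0.0577 in siFUBP1 over PTPRC, CD68 and CD3E. Epithelial markers (EPCAM, CDH1 and KRT5, with KRT5 at 0) summed to 4.98 ± 0.579 CPM against 5.44 ± 0.758, and endothelial markers (PECAM1, CDH5 and VWF, led by CDH5) to 4.18 ± 0.988 against 2.32 ± 0.46. The low-level bone factor RUNX2 rose from 8, 8 and 6 reads to 73, 97 and 39, VIM rose (log2 fold change 0.38, adjusted p = 2.1e-04), and COL1A1 fell to 45.5 CPM (log2 fold change -1.31, adjusted p = 1.83e-13). The part of these markers in the respiratory chain results was not tested.

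The promoter windows of the most changed members are shown because several regulators of respiratory chain genes, among them NRF1, the ETS-family factor GABP and YY1, are known to bind close to their start sites. Each window spans 250 bases before and 50 bases after the start (RefSeq, GRCh38.p14), and capitals mark matches to the core letters GCGCATGCG (NRF1) or CCGGAAG (ETS), searched on both strands. The SDHC promoter is not among the windows used here.
COX8A (chr11:63974370-63974669, plus strand): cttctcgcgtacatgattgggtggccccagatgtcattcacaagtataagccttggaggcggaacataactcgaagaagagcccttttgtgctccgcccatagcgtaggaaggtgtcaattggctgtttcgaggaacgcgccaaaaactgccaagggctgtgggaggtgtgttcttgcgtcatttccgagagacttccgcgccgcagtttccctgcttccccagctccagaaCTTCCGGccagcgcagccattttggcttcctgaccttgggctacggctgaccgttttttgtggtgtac
SDHD (chr11:112086623-112086922, plus strand): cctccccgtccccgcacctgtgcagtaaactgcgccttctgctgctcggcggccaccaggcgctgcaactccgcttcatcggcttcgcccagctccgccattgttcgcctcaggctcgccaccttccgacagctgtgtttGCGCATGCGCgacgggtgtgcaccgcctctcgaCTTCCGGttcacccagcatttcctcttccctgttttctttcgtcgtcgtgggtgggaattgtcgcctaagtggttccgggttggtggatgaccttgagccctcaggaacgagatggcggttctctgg
NDUFB11 (chrX:47144653-47144952, minus strand): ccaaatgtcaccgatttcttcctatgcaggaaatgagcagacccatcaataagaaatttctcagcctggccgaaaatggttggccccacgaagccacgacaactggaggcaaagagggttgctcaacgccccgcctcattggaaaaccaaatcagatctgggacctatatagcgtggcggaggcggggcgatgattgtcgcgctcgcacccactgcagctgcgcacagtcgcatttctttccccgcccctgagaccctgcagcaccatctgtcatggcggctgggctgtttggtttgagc
UQCRC2 (chr16:21953111-21953410, plus strand): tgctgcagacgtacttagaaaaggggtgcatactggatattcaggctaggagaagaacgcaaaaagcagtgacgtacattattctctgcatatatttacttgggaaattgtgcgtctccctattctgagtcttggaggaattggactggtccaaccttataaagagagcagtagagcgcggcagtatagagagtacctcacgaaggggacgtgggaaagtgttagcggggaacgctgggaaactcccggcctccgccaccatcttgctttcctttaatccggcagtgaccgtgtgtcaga

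The SDHD window held the NRF1 core on both strands, at 110 and 109 bases before the start as an overlapping palindrome, and an ETS core 77 bases before it. COX8A held an ETS core 18 bases before the start, and the NDUFB11 and UQCRC2 windows held neither of these letters, nor AAGATGGCG (YY1). Windows were found for 69 of the 89 members, 82 windows in all since some genes have several starts. The NRF1 core was in 11 of the 82 (13.4%; 1.92% of all 35116 windows), the ETS core in 22 (26.8%; 10.3%) and the YY1 core in 10 (12.2%; 1.75%). These matches are a description of letters and do not show binding.

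Of the 36 members of complex I, all tested, 6 were higher (16.7%) and 16 were lower (44.4%), against 30.1% each way over all tested genes, with a median log2 fold change of -0.15. That median was -0.228 without siFUBP1 replicate 1 and -0.234 without siMock replicate 3. With total counts as library sizes, 8 were higher and 14 lower, with a median of -0.0527. The summed level of the 36 genes was 2332.2 ± 67.2 CPM (SD, n = 3) in siMock and 2006.7 ± 90.2 in siFUBP1. On this TMM-adjusted scale no siFUBP1 sample reached the lowest siMock sample. Of these sums, NDUFB11 alone made up 189 CPM in siMock and 71.4 in siFUBP1. NDUFB11, an accessory subunit of the membrane arm (ENSG00000147123, chromosome X, 47142216 to 47145504, minus strand, GRCh38), changed most. It measured 192, 189 and 187 CPM in siMock and 73.5, 71.6 and 69.2 in siFUBP1. The groups were far apart, at 37.7% of the siMock mean (log2 fold change -1.41 ± 0.0753 (SE), adjusted p = 1.98e-14). Of its exonic bases, 44.9% overlap RBM10 on the opposite strand, and the library kit named in the labels is not stated to keep strand, so reads in the overlap cannot be told apart. RBM10 went the other way, from 95.9 ± 5.56 CPM (SD, n = 3) to 121 ± 8.15.

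Core subunits of the matrix arm, which carry the flavin and the iron-sulfur clusters, did not move together. NDUFV1, the NADH-binding flavoprotein, measured 176, 170 and 140 CPM in siMock and 113, 119 and 118 in siFUBP1, without overlap (log2 fold change -0.47 ± 0.0838, adjusted p = 2.58e-05). It was at -0.23 (adjusted p = 0.00367) after correction for GC content and length. NDUFS1, which carries iron-sulfur clusters, fell by 0.32 on the log2 scale, and NDUFS3 and NDUFS8 each fell by 0.34. With the same correction NDUFS8 was at -0.16 (adjusted p = 0.0377). NDUFV2, another iron-sulfur subunit, went the other way: it was low, at 40, 57 and 50 reads in siMock and 86, 91 and 81 in siFUBP1, and rose (log2 fold change 0.73 ± 0.204, adjusted p = 0.00313). For NDUFV2, 28.4% of the exonic bases are shared on the same strand with the gene model AP005263.1, which had 0 reads. Whether reads in those bases were counted for NDUFV2 was not tested. NDUFS7, at 20.2 ± 2.19 CPM (SD, n = 3) in siMock and 18.0 ± 0.634 in siFUBP1, did not pass the test (log2 fold change -0.17, adjusted p = 0.191), and its sign turned to 0.19 after correction for GC content and length.

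Among the accessory subunits, those of the NDUFB and NDUFC families had 1 of 13 higher (7.69%) and 6 lower (46.2%), and those of the NDUFA family 2 of 12 higher (16.7%) and 4 lower (33.3%), the last near the 30.1% lower over all tested genes. NDUFA5 rose from 49.9 ± 3.02 to 75.9 ± 6.11 CPM (log2 fold change 0.61, adjusted p = 1.12e-06) and NDUFB5 from 38.7 ± 3.67 to 57.8 ± 2.53 CPM (0.58, adjusted p = 4.2e-06). NDUFA2 fell from 41.1 ± 2.14 to 28.0 ± 2.42 CPM (-0.55, adjusted p = 1.46e-05). NDUFA11 fell from 11.1 ± 1.02 to 7.62 ± 0.447 CPM (-0.54, adjusted p = 0.00198), a call lost after correction for GC content and length (-0.22, adjusted p = 0.159). The accessory subunits NDUFS4 and NDUFA8, named after their values were seen, also rose, at 0.51 and 0.45. After the same correction they were at 0.29 and 0.41.

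Complex II, succinate dehydrogenase, changed unevenly: both membrane anchors fell, 1 catalytic subunit rose and the other was not called. Of its 4 members 1 was higher (25%) and 2 were lower (50%), beside 30.1% each way over all tested genes. SDHC, a membrane anchor that holds heme and ubiquinone (ENSG00000143252, chromosome 1, 161314257 to 161375340, plus strand), measured 129, 130 and 145 CPM in siMock and 44.2, 38.3 and 44.8 in siFUBP1. All 3 siFUBP1 samples lay below every siMock sample, at 31.5% of the siMock mean (log2 fold change -1.67 ± 0.0851 (SE), adjusted p = 8.05e-15). SDHD, the other anchor (ENSG00000204370, chromosome 11, 112086773 to 112120013, plus strand), measured 63.3, 61.0 and 68.9 CPM against 27.8, 23.9 and 26.5. It fell to 40.4% (log2 fold change -1.31 ± 0.092, adjusted p = 4.19e-12).

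The catalytic part did not share that fall. SDHB, the iron-sulfur subunit (ENSG00000117118, chromosome 1, 17018722 to 17054170, minus strand), measured 78.2, 76.2 and 78.4 CPM in siMock and 112, 105 and 111 in siFUBP1. The siFUBP1 values were higher in all 3 samples, at 141% of the siMock mean (log2 fold change 0.50 ± 0.0756, adjusted p = 3.08e-06). SDHA, the flavoprotein, measured 534, 475 and 485 CPM against 487, 472 and 510. These groups overlapped and did not differ in the test (log2 fold change -0.0246 ± 0.0786, adjusted p = 0.807). Of the 4 complex II assembly factors, SDHAF1 (-0.76) and SDHAF2 (-0.73) fell and SDHAF3 (0.91) rose. These are 50% lower and 25% higher, beside 30.1% each way over all tested genes.

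Complex III had 1 higher (10%) and 4 lower (40%) of 10 members, beside 30.1% each way over all tested genes. Its median of 0.0522 lay between -0.00842 and 0.0825 with 1 sample left out, and turned to -0.0666 after correction for GC content and length. Its core proteins moved in opposite directions. UQCRC2 (ENSG00000140740, chromosome 16, 21952660 to 21983660, plus strand) measured 136, 132 and 156 CPM in siMock and 254, 220 and 250 in siFUBP1. The groups did not overlap, and the mean rose to 171% (log2 fold change 0.77 ± 0.083, adjusted p = 1.07e-08). UQCRC1, its partner core protein, measured 381, 333 and 304 CPM against 268, 259 and 261 (log2 fold change -0.37 ± 0.0826, adjusted p = 3.97e-04). After correction for GC content and length UQCRC1 was at -0.21 (adjusted p = 0.00495).

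The redox subunits of complex III were not called. CYC1, cytochrome c1, averaged 150 ± 10.4 CPM in siMock and 165 ± 5.31 in siFUBP1 (log2 fold change 0.13, adjusted p = 0.133), and passed the test with upper quartile scaling (0.18, adjusted p = 0.0492), with total counts as library sizes (0.23, adjusted p = 0.0111) and after correction for GC content and length (0.41, adjusted p = 1.57e-06). UQCRFS1, the Rieske iron-sulfur protein, averaged 97.4 ± 3.13 against 102 ± 7.15 CPM (0.0727, adjusted p = 0.441). Among the small subunits, UQCRQ (-0.42), UQCR10 (-0.35) and UQCRB (-0.29) fell, and UQCR10 lost its call without siMock replicate 1 (-0.24, adjusted p = 0.054). UQCRHL, a retrocopy of UQCRH, had an uncertain share of reads with its parent gene and was not called.

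Complex IV, cytochrome c oxidase, held the largest change of all members. COX8A, the ubiquitous form of subunit VIII (ENSG00000176340, chromosome 11, 63974607 to 63976543, plus strand), had 677, 545 and 509 reads in siMock and 48, 72 and 77 in siFUBP1. In CPM these were 41.5, 32.1 and 32.6 against 2.84, 4.15 and 4.41. The siFUBP1 samples lay far below every siMock sample, at 10.7% of the siMock mean (log2 fold change -3.21 ± 0.148 (SE), adjusted p = 2.24e-15). Its log2 fold change lay between -3.33 and -2.97 in every alternative run. Of its 507 exonic bases, 34.5% are shared on the same strand with the gene model AP000721.1, which had 0 reads in all samples. How reads in the shared bases were assigned is not stated. Whether the COX8A counts include such reads or come only from the unshared bases was not tested.

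The longest run of bases complementary to any of the 3 FUBP1 siRNA guides listed for the study was 7 in the COX8A transcript, and a run at least that long was found in 88.9% of 12637 coding genes for that guide. The FUBP1 transcript matched all 19 guide bases searched. For SDHC the longest run was 9, found in 9.92% of genes, for NDUFB11 and SDHD it was 7, and for UQCRC2 it was 9, found in 14.2%. The search used the longest coding transcript of each gene. It did not score where a run lay in the guide or the transcript, and it left out the sense strands of the siRNAs. Whether the siRNA acted directly on any of these members was not tested.

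The other common subunits of complex IV changed less. Of 11 common subunits, 4 were lower (36.4%) and 0 higher, beside 30.1% each way over all tested genes, and after correction for GC content and length complex IV had 8 lower, all of them common subunits. COX4I1, a regulatory subunit, measured 379, 327 and 316 CPM in siMock and 279, 244 and 252 in siFUBP1, without overlap (log2 fold change -0.40 ± 0.0834, adjusted p = 1.83e-04). COX5A fell by 0.28 on the log2 scale, and COX5B did not pass the test (-0.0662, adjusted p = 0.508). COX6A1, COX6B1, COX7A2 and COX7B lay between -0.21 and 0.0518 and were not called. COX6A1 did pass the test with length correction (-0.23, adjusted p = 0.0219), without siMock replicate 3 (-0.27, adjusted p = 0.0195) and without siFUBP1 replicate 2 (-0.27, adjusted p = 0.0258). COX6B1, at -0.13, passed without siFUBP1 replicate 1 (-0.24, adjusted p = 0.0252) and was at -0.0442 without replicate 2. COX7A2 and COX7B turned to -0.0491 and -0.0392 without siFUBP1 replicate 1. With correction for GC content and length, COX6A1 was at -0.46 (adjusted p = 5.67e-05), COX7A2 at -0.19 (adjusted p = 0.0205) and COX5B at -0.15 (adjusted p = 0.0466), and COX7C, named after its values were seen, went from -0.0792 to -0.37 (adjusted p = 2.66e-05). COX7A2L, a relative of subunit VIIa that helps join complexes III and IV into supercomplexes, rose from 140, 134 and 142 CPM to 223, 221 and 202 (log2 fold change 0.64 ± 0.0757, adjusted p = 6.15e-08).

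**Figure D2:**
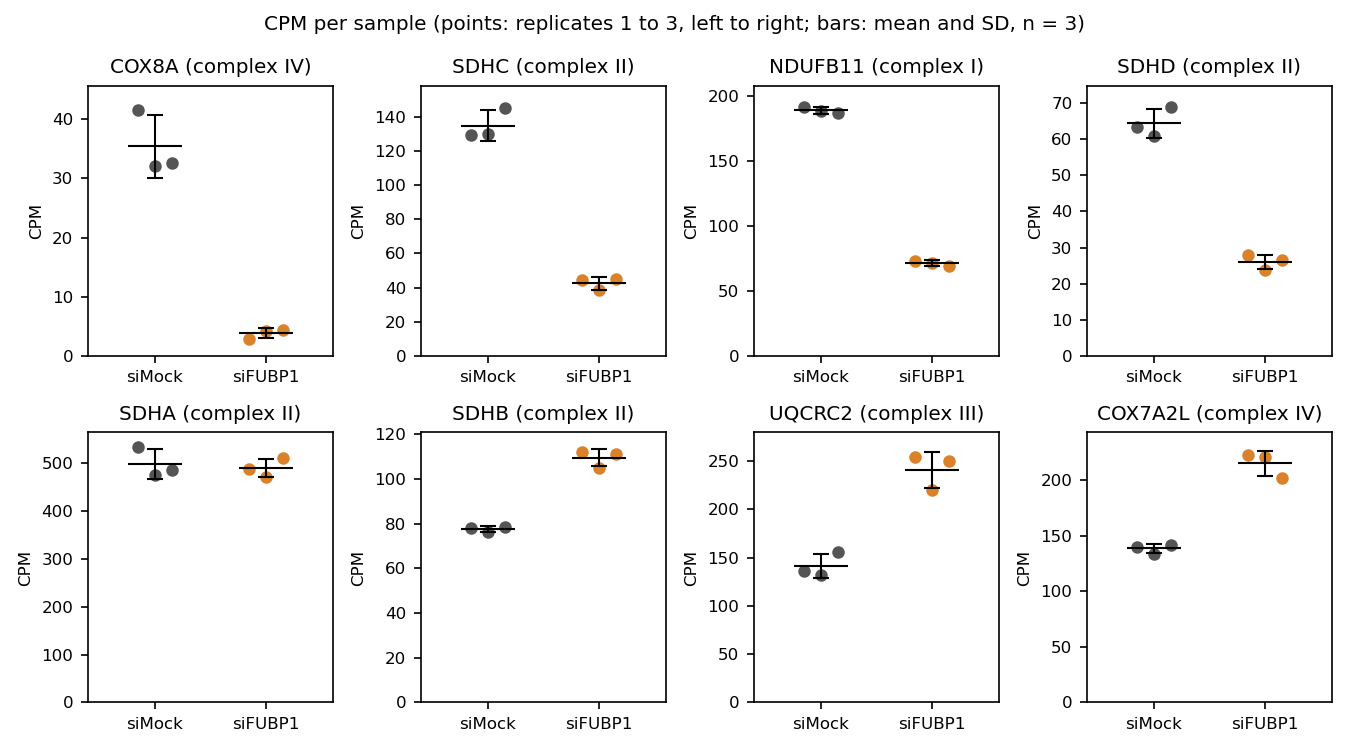
CPM in each of the 3 siMock and 3 siFUBP1 samples for 8 members (points), with the mean and SD as bars. COX8A, SDHC, NDUFB11 and SDHD lie lower in every siFUBP1 sample, SDHB, UQCRC2 and COX7A2L lie higher, and the SDHA groups overlap.

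Of the 6 tissue-restricted isoforms of complex IV, 4 had too few reads to be tested. COX4I2 and COX6A2, forms of lung and of heart and muscle, had 0 reads in every sample, which allows up to 0.184 CPM in the shallowest. COX7A1, the heart and muscle form, had 5 to 14 reads, and COX8C, the testis form, 0 to 3. COX6B2 and COX7B2, testis forms, were tested and not called, at 176, 84 and 109 reads against 85, 102 and 99 for COX6B2 and 28, 21 and 38 against 52, 33 and 41 for COX7B2. The COX6B2 value rested on the siMock sample with 176 reads: its log2 fold change of -0.45 was -0.11 without siMock replicate 1, and it was called at -0.68 (adjusted p = 0.00469) without siMock replicate 2 and, barely, at -0.44 (adjusted p = 0.0447) with no filter on low counts. In the siFUBP1 samples, where COX8A was low, COX8C had 0 reads in each of the 3. The muscle markers MYH2, ACTA1 and CKM together gave 0.452 ± 0.159 CPM in siMock and 0.271 ± 0.144 in siFUBP1.

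Complex V had 3 higher and 7 lower of 19 tested members (15.8% and 36.8%), beside 30.1% each way over all tested genes, and 4 of each without siFUBP1 replicate 3. Its median of -0.0633 lay between -0.106 and -0.0356 with 1 sample left out, and turned to 0.0332 with total counts as library sizes, where 6 were higher and 4 lower. The catalytic head divided: ATP5F1B, the beta subunit, rose slightly from 964, 946 and 984 CPM to 1145.9, 1098.2 and 1154.0 (log2 fold change 0.23 ± 0.0786, adjusted p = 0.0132), whereas ATP5F1A, the alpha subunit, fell from 434, 404 and 432 CPM to 338, 293 and 345 (-0.38 ± 0.0805, adjusted p = 2.18e-04). The groups did not overlap in either gene. The ATP5F1B call was lost after correction for GC content and length (0.14, adjusted p = 0.0633) and without siMock replicate 2 (0.22, adjusted p = 0.0561).

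The c ring, which turns as protons pass, is encoded by 3 genes that make the same mature protein. ATP5MC1 and ATP5MC3 each fell by 0.41 on the log2 scale (adjusted p = 1.6e-04 and 1.14e-04), and ATP5MC2, at 195 TPM in siMock the highest of the 3 per length, was not called (-0.0277, adjusted p = 0.789). The peripheral stalk subunit ATP5PB rose from 185 ± 11.7 to 243 ± 16.3 CPM (0.40, adjusted p = 1.11e-04). It was at 0.24 (adjusted p = 0.00207) after correction for GC content and length. ATP5MD, a small membrane subunit, rose from 63.8 ± 1.67 to 89.7 ± 9.59 CPM (0.49, adjusted p = 1.76e-05). ATP5MF, another small subunit, fell from 110 ± 3.32 to 81.8 ± 6.17 CPM (-0.42, adjusted p = 4.94e-05). The readthrough gene ATP5MF-PTCD1, with 1 to 8 reads, and ATP5MGL, with 0 to 5, were not tested.

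Levels per length differed widely between members. In siMock, levels in TPM (counts per exonic base, with the length taken from the file, scaled to the same total in every sample) were highest for ATP5F1B at 1350.5 ± 8.42 and NDUFS5 at 1283.2 ± 45.8, followed by UQCRH at 663 ± 10.9. NDUFV2, NDUFA9, NDUFA13 and NDUFA7 lay between 2.37 and 3.60 TPM, although their proteins belong to the same complex in equal numbers. The length joins the exons of all annotated transcripts. Of the exonic bases, 32.3% for NDUFA7 and 28.4% for NDUFV2 are shared with another gene model, so low levels per length are uncertain.

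The siFUBP1 samples were not equally displaced. The median over tested members of the difference from the siMock mean, on the log2(CPM + 0.5) scale, was -0.0285, -0.163 and -0.233 in siFUBP1 replicates 1, 2 and 3. The median log2 fold change of the members, -0.113 with all samples, was -0.187 without siFUBP1 replicate 1, -0.0833 without replicate 2 and -0.076 without replicate 3, and -0.075 without siMock replicate 2. The counts were 12 higher and 33 lower without replicate 1, and 14 and 28 without replicate 3.

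Genes with more GC tended to be lower in siFUBP1. Spearman's rho between log2 fold change and GC content was -0.227 across the 83 tested members and -0.203 across all 16116 tested genes, as a description across genes, which are not independent replicates. With a correction for GC content and length, 14 members were higher and 40 lower, and 41 of the 45 calls kept their direction. COX8A was then -2.97, SDHC -1.67, SDHD -1.54, NDUFB11 -1.29 and UQCRC2 0.72.

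**Figure D3:**
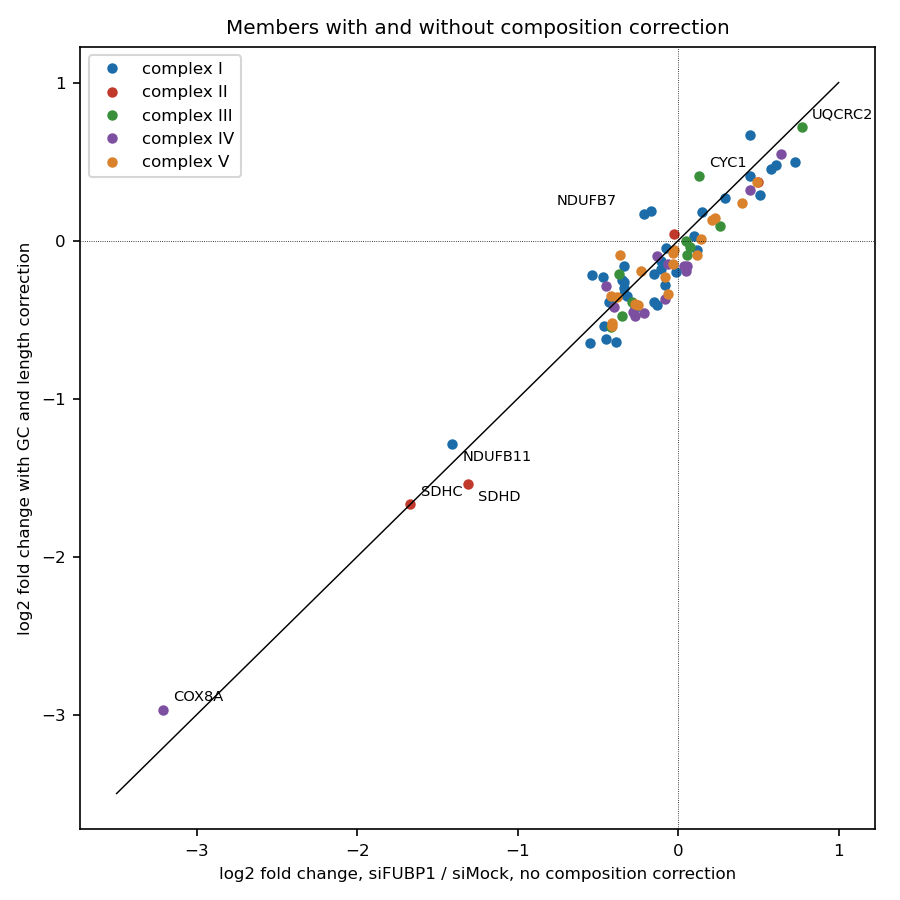
Log2 fold change of 82 of the 83 tested members without (horizontal axis) and with (vertical axis) correction for GC content and length, coloured by complex, with the line of equality. The 4 most lowered members stay below -1 on both axes, with COX8A at -3.21 and -2.97 and SDHD at -1.31 and -1.54, CYC1 moves from 0.13 to 0.41, and NDUFB7 moves from -0.21 to 0.17.

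Most subunit mRNAs encoded by mitochondrial DNA fell. Of 13, 12 were lower (92.3%) and 0 higher, beside 30.1% each way over all tested genes, with a median log2 fold change of -0.536, and MT-ND4L did not pass the test (-0.28, adjusted p = 0.126). Their summed level was 54106.3, 52107.4 and 62101.1 CPM in siMock and 40255.5, 32668.9 and 39152.1 in siFUBP1, or 66.6% of the siMock mean. MT-CO3, a core subunit of complex IV, fell by 0.96 (adjusted p = 4.81e-09) and MT-ATP6, of complex V, by 0.78 (adjusted p = 1.15e-07) on the log2 scale. The share of all counts on the mitochondrial chromosome was 5.6% to 6.59% in siMock and 3.98% to 4.88% in siFUBP1. Whether RNA quality or the poly-A selection took part was not tested.

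Of the nuclear side, 11 of 14 nuclear genes for expression of mitochondrial DNA were higher (78.6%) and 0 lower, beside 30.1% each way over all tested genes, with a median of 0.398. TFB2M and TFB1M, factors of mitochondrial transcription and ribosomal RNA methylation, rose by log2 fold changes of 0.73 and 0.70. After correction for GC content and length, 10 of the 14 were higher and 2 lower.

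Over all tested genes 30.1% were higher and 30.1% lower, and the lists that follow are to be read beside these shares. The electron carriers and the ubiquinone pathway had 9 higher (52.9%) and 1 lower (5.88%) of 17. CYCS, cytochrome c, rose from 153 to 269 CPM (log2 fold change 0.81 ± 0.075, adjusted p = 6.49e-10). PDSS2 and COQ2, which make the ubiquinone tail and attach it, rose by 1.42 and 0.92, and COQ8B fell by 1.10 on the log2 scale. Complex IV assembly factors gave 10 higher (47.6%) and 3 lower (14.3%) of 21. COX10 (0.96), COX20 (0.83) and CMC2 (0.81) were among those that rose, and COX16 (-1.30), COA3 (-0.54) and COX15 (-0.46) fell. COX16 and COX20, with mean counts of 26.7 and 59, were named after their values were seen. Complex I assembly factors gave 6 higher (37.5%) and 5 lower (31.2%) of 16, or 6 and 3 with total counts as library sizes. NDUFAF2 was at 0.91 and NUBPL at 0.49, against NDUFAF3 at -0.59 and ACAD9 at -0.45. NDUFAF3 was at -0.32 after correction for GC content and length. Of 6 complex III assembly factors, LYRM7 (1.19) and BCS1L (0.40), which act on the Rieske protein during assembly, rose. None of the 6 fell by this test, but 1 was lower without siMock replicate 3 and 2, TTC19 (-0.27) and UQCC1 (-0.23), after correction for GC content and length. Of 3 tested for complex V, TMEM70 (-0.55) fell. Of the 4 adenine nucleotide and phosphate carriers, SLC25A3 (-0.34), the phosphate carrier, and SLC25A6 (-0.26) fell. SLC25A6 lost its call with total counts as library sizes (-0.17), without siMock replicate 1 (-0.19) and after correction for GC content and length (0.0357). Other mitochondrial proteins gave 5 higher and 1 lower of 10, which became 3 and 3 with the same correction, with the protease LONP1 at 1.15, the chaperone HSPD1 at 0.89 and the outer-membrane channel VDAC1 at -0.21. The VDAC1 call was lost with upper quartile scaling, with total counts as library sizes, and when siMock replicate 3 or either of siFUBP1 replicates 1 and 2 was dropped (log2 fold changes of -0.21 to -0.12).

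Among regulators of mitochondrial biogenesis, 4 of 9 were higher and 1 was lower, and limma on FPKM called 2 higher and 1 lower. GABPB2 and GABPB1, partner subunits of the ETS factor GABPA, rose by 1.49 and 1.24, and GABPA fell from 759, 799 and 882 reads to 530, 617 and 697 (log2 fold change -0.49, adjusted p = 1.58e-04). NRF1 was not called (0.0323, adjusted p = 0.827). The ribosomal proteins of mitochondria gave 30 higher and 14 lower of 78, which became 26 and 27 with correction for GC content and length. MRPL1 (1.02) and MRPS10 (0.95) rose most and MRPS2 (-1.30) and MRPS28 (-1.16) fell most among those the naming rule admitted. Those of the cytosol gave 6 higher and 21 lower of 82, which became 15 and 13 with total counts as library sizes, 6 and 36 with correction for GC content and length, and 5 and 13 without siMock replicate 1. RPL10, at -2.13, fell from 937 ± 34.3 CPM to 214, RPS19 was at -0.53, and the paralogs RPL26L1 and RPL22L1 were at 1.6 and 1.26.

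**Figure D4:**
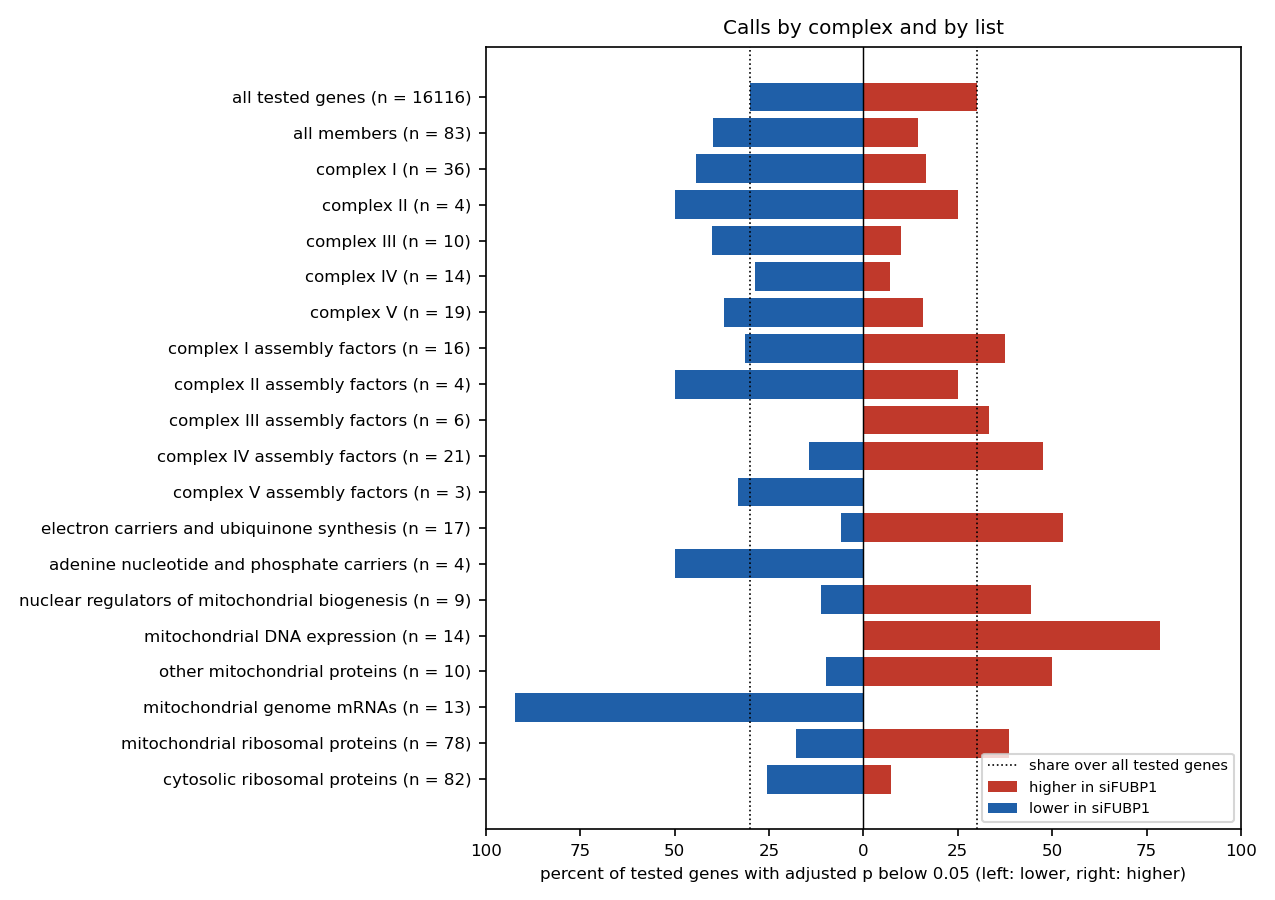
Percent of tested genes that were higher (right) or lower (left) in siFUBP1 at an adjusted p below 0.05, for the complexes and the other lists, with dotted lines at the share over all 16116 tested genes (30.1% each way). The mitochondrial genome mRNAs reach 92.3% lower, and the list for mitochondrial DNA expression reaches 78.6% higher.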

How the data were processed

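RNA of 6 MG63 samples (3 siMock, 3 siFUBP1, grouped by their titles) was sequenced after poly-A selection. The authors deposited one table with raw read counts per gene, made with tools the submitters' processing notes list as HISAT2 2.0.5, StringTie 1.3.3b, featureCounts 1.5.0-p3 and DESeq2 1.16.1. It also holds FPKM values computed by the authors, signal columns with the authors' group means, and the authors' deposited log2 fold changes and p-values, of which the last 3 kinds were not used. Identifiers and positions match GENCODE release 29 (GRCh38).

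Differences were tested on the counts by edgeR (version 4.0.16, under R 4.3.3; TMM, its expression filter, robust quasi-likelihood F test, Benjamini-Hochberg adjustment over 16116 genes). TMM factors were 0.959 to 1.05. Counts were simulated with 200 changed genes, each averaging 100 or more counts, and no GC trend. Of these, 82% were recovered at a log2 fold change of 0.5 and 100% at 1 or more, with 16 false calls among 15829 genes. With a GC trend added, the same fit gave 5685 false calls among 15789 genes. After the GC and length correction there were 12 among 15782. The added trend was not fitted to these data, so neither count measures the false calls among the reported genes. No samples were identical. The GC and length correction fitted a loess curve (span 0.3) to genes averaging 50 or more counts. Limits at a count of 0 use 3 counts and cover counting error only.

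Members and lists were chosen with earlier results of these data known. Named genes are FUBP1, the core subunits, the c subunit genes, the complex IV isoforms, up to 3 called members per direction and complex, and 2 genes per direction from each other list, with groups that do not overlap and an average of 100 or more counts. The values of 1 named gene are not reported here. The cytosolic ribosomal list left out the RPS6 kinases. Alternatives were other scalings and filters, DESeq2 1.42.0, limma 3.58.1 on log2(FPKM + 1) and log2(FPKM + 0.1), a replicate block, composition corrections and leaving out each sample.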

Additional observations from a re-analysis of the deposited data

How the results depend on the processing

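Among the 79 tested genes that the naming rule gives, 1300 of 1342 comparisons with an alternative kept direction and side of the threshold, 12 gained and 11 lost a call, and 19 changed sign. SLC25A6, at 0.0357 with GC and length correction, was the only gene among these 19 that was called in the reported comparison. Of the 45 called members, 36 (11 higher, 25 lower) kept their call in every alternative. Requiring an absolute log2 fold change above 1 left 0 members higher and 4 lower, and 1315 genes higher and 1472 lower overall. The median of complex IV, -0.105 in the reported comparison, lay between -0.152 and -0.059 with 1 sample left out. With total counts only, the medians were -0.0527 for complex I, -0.568 for II, 0.149 for III, -0.0095 for IV and 0.0332 for V. With correction for GC content and length they were -0.75 for II, -0.0666 for III, -0.244 for IV and -0.155 for V. That correction also turned NDUFS7 to 0.19, UQCRFS1 to -0.0444, COX7A2 to -0.19 and COX7B to -0.16, and NDUFB7 (named after its values were seen) from -0.21 to 0.17, past the threshold both ways. SDHA was 0.0183 with upper quartile scaling, 0.0721 with total counts only, 0.0147 with length correction and 0.0392 with GC and length correction. ATP5MC2 was 0.0157 with upper quartile scaling and 0.0682 with total counts only, and COX5B 0.0308 with total counts only. Leaving out each sample in turn gave -0.0567 to 0.0224 for SDHA, -0.12 to 0.0123 for COX5B, -0.11 to 0.0342 for ATP5MC2, -0.0491 to 0.11 for COX7A2 and -0.0392 to 0.16 for COX7B. The cause of these shifts was not tested. With NDUFA4 counted in complex I, that complex had 17 lower and complex IV 3. With the replicate number as a block, 13 members were higher and 34 lower, COX6A1 among them (adjusted p = 0.0274). Same-numbered samples deviated with correlations of 0.0282, 0.0478 and 0.238, and differently numbered ones with -0.19 to 0.146. The labels do not say whether samples of one number shared anything else. Low-count members such as NDUFA7, NDUFA13 and COX7B2 were not called in the reported comparison, and the part of depth in this was not tested. NDUFA13 passed after correction for GC content and length (0.67, adjusted p = 0.0197).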
